A study of Homo sapiens with 66 samples.

Results

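The genes described here are 9 markers of the astrocyte and oligodendrocyte lineages, read in every library of a spinal motor neuron differentiation course. They were taken by name from the gene tables, with earlier results of these data known, and are 9 of 60603 gene identifiers. Bulk mRNA-seq was performed on 66 libraries in 22 groups of 3, all from H9, an established wild-type human embryonic stem cell line. In protocol order the groups began with undifferentiated cells (hESC) and days 1 to 4 towards neuromesodermal progenitors (hNMP). By the protocol, cells were plated in mTeSR medium for 1 day before FGF2, CHIR99021 and the dual-SMAD inhibitors SB431542 and Dorsomorphin were given. The labels do not tell if hNMP-D1 was taken before or after this change of medium. Days 1 to 6 of neural determination (NeuDet) followed, with FGF8 and Compound E added. Next came passages 5, 10, 20, 30 and 40 of spinal cord neural progenitors (hSCNPC), kept in SB431542, CHIR99021 and Purmorphamine. Last were days 6, 12, 18, 24, 30 and 42 of motor neuron differentiation (hMN) in Purmorphamine, Compound E, BDNF, GDNF and NT-3. The labels do not say from which passage the hMN were made, so hSCNPC-P10 was used as their starting point. The model is a single cell line, and nothing in the labels tells if replicate libraries stem from different cultures, so p-values measure the spread between these libraries only.

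In the developing spinal cord, radial glia of the ventricular zone first produce neurons and later switch to glia. Astrocytes acquire the intermediate filament protein GFAP, the calcium-binding protein S100B, the water channel AQP4 and the folate enzyme ALDH1L1, and clear glutamate with the transporters GLT-1 (SLC1A2) and GLAST (SLC1A3). Radial glia themselves already express SLC1A3 and the brain lipid-binding protein FABP7. Oligodendrocyte precursors carry the PDGF receptor PDGFRA and the proteoglycan NG2, encoded by CSPG4, but PDGFRA and CSPG4 are also made by mesenchymal cells and pericytes, and S100B by Schwann and other neural crest cells.

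Levels are given as CPM (counts relative to library size) on library sizes scaled by TMM over all libraries. A gene was taken as detected where each of the 3 libraries of a group had at least 1 CPM. A difference was called where edgeR's quasi-likelihood test gave a Benjamini-Hochberg adjusted p below 0.05 over all genes tested, and fold changes are log2 values with their standard errors (SE). The 66 libraries held 14142238 to 40204753 counts (median 20676228), and the 18 hMN libraries 14142238 to 27677746. The hMN libraries were in one deposited table and the others in another, so that the hMN-D6 comparison with hSCNPC-P10 crosses both tables. No replicate pair had identical counts. The progenitor label was matched by its markers, with SOX2 at 593, NES at 2371 and PAX6 at 533 CPM in hSCNPC-P10. All 15 pan-neuronal markers and 7 of 8 motor neuron markers were detected in hMN-D42.

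All 9 genes are protein coding in GENCODE release 44 on GRCh38. GFAP lies on chr17:44903159-44916937 (minus strand), S100B on chr21:46598604-46605208 (minus), AQP4 on chr18:26852043-26865771 (minus) and ALDH1L1 on chr3:126103562-126197994 (minus). SLC1A2 lies on chr11:35251205-35420063 (minus), SLC1A3 on chr5:36596588-36688334 (plus) and FABP7 on chr6:122779716-122784074 (plus). PDGFRA lies on chr4:54229280-54298245 (plus) and CSPG4 on chr15:75674322-75712848 (minus). The counts cover whole genes, exons and untranslated parts included. Other annotated genes overlap 19.9% of the exon bases of GFAP, 16.1% of those of PDGFRA and 6.79% of those of CSPG4, and the strand setting of the counting is not given in the sources used here. Of these neighbours, FAM187A on the other strand of GFAP, ENSG00000282278 on the strand of PDGFRA and ENSG00000260892 on the other strand of CSPG4 were without counts in all 22 groups. CCDC103, on the other strand of GFAP, averaged 0.0761 CPM in hMN-D42 and at most 0.278 CPM in any group. Without the strand setting, reads of overlapping or antisense genes cannot be told apart.

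The stretches upstream of 3 of the genes are shown because CSPG4 had its highest level at the end of the course, whereas SLC1A3 and FABP7 had theirs in passaged progenitors. Each is the 250 bases before the annotated start, 5′ to 3′ on the gene's strand, from RefSeq on GRCh38.p14. In this source 6 of the 9 genes had a window, namely AQP4, SLC1A3, FABP7, ALDH1L1, PDGFRA and CSPG4. Capitals mark every match, on both strands, to the E-box CANNTG, the SOX core ACAAT, the NFI half-site TTGGCA, the STAT site TTCNNNGAA, the RBPJ site TGGGAA and the TATA box TATAAA.
CSPG4, chr15:75712849-75713098, minus strand: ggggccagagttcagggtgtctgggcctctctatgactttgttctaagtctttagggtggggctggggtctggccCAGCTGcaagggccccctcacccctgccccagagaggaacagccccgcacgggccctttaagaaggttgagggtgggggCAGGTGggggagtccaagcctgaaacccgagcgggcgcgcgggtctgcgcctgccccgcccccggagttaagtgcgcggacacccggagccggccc
SLC1A3, chr5:36596338-36596587, plus strand: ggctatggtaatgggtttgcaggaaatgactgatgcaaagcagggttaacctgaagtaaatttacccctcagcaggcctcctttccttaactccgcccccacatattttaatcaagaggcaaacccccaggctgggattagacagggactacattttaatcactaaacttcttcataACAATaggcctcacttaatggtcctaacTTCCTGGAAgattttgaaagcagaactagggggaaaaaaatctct
FABP7, chr6:122779466-122779715, plus strand: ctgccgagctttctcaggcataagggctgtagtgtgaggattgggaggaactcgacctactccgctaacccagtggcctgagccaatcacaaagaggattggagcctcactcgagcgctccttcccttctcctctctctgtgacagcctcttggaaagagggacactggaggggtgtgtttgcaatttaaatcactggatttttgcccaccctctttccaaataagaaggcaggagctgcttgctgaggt

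The CSPG4 window, of which 68.4% of bases were G or C, held 2 E-boxes, starting 175 and 96 bases before the gene's start, and 61.8% of all 35116 windows of this length held at least 1. The SLC1A3 window shown (43.2% G or C), the one at the annotated start of the gene, held 1 SOX core starting 73 bases and 1 STAT site starting 45 bases before the start, motifs found in 24.6% and 6.57% of all windows. SLC1A3 had other windows in this source at starts further into the gene. The one at chr5:36606356-36606605 held an NFI half-site starting 137 bases before its start and no other of the motifs, and the one at chr5:36606704-36606953 held none. The FABP7 window (52.8% G or C) held none of the 6 motifs. The NFI half-site, the RBPJ site and the TATA box, with no match in the 3 windows shown, were in 10.8%, 20.8% and 10.7% of all windows. These matches describe letters and were not tested as binding sites.

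The number of detected genes among the 9 was lowest in the passaged progenitors and increased again along the hMN course. In hESC 8 of the 9 were detected (all but S100B), and the count was 5 or 6 through the hNMP and NeuDet days. It was 4 at every hSCNPC passage, namely SLC1A2, SLC1A3, FABP7 and CSPG4, and still 4 in hMN-D6. S100B was added in hMN-D12, AQP4 in hMN-D18 and GFAP in hMN-D42, giving 7 of 9, while ALDH1L1 and PDGFRA were not detected by this criterion in any hMN group. These onsets depend on the threshold and came earlier at 0.5 CPM. S100B then passed in hMN-D6 (lowest library 0.549 CPM), AQP4 in hMN-D12 (0.873 CPM) and GFAP in hMN-D30 (0.510 CPM). PDGFRA also passed in hMN-D42 (0.739 CPM), giving 8 of 9 there, and ALDH1L1 still passed in no hMN group. SLC1A2, SLC1A3 and CSPG4 were detected in all 22 groups. Undetected genes in bulk RNA may still be expressed in few cells, and here fewer cells of a type and less RNA per cell cannot be told apart.

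**Figure D1:**
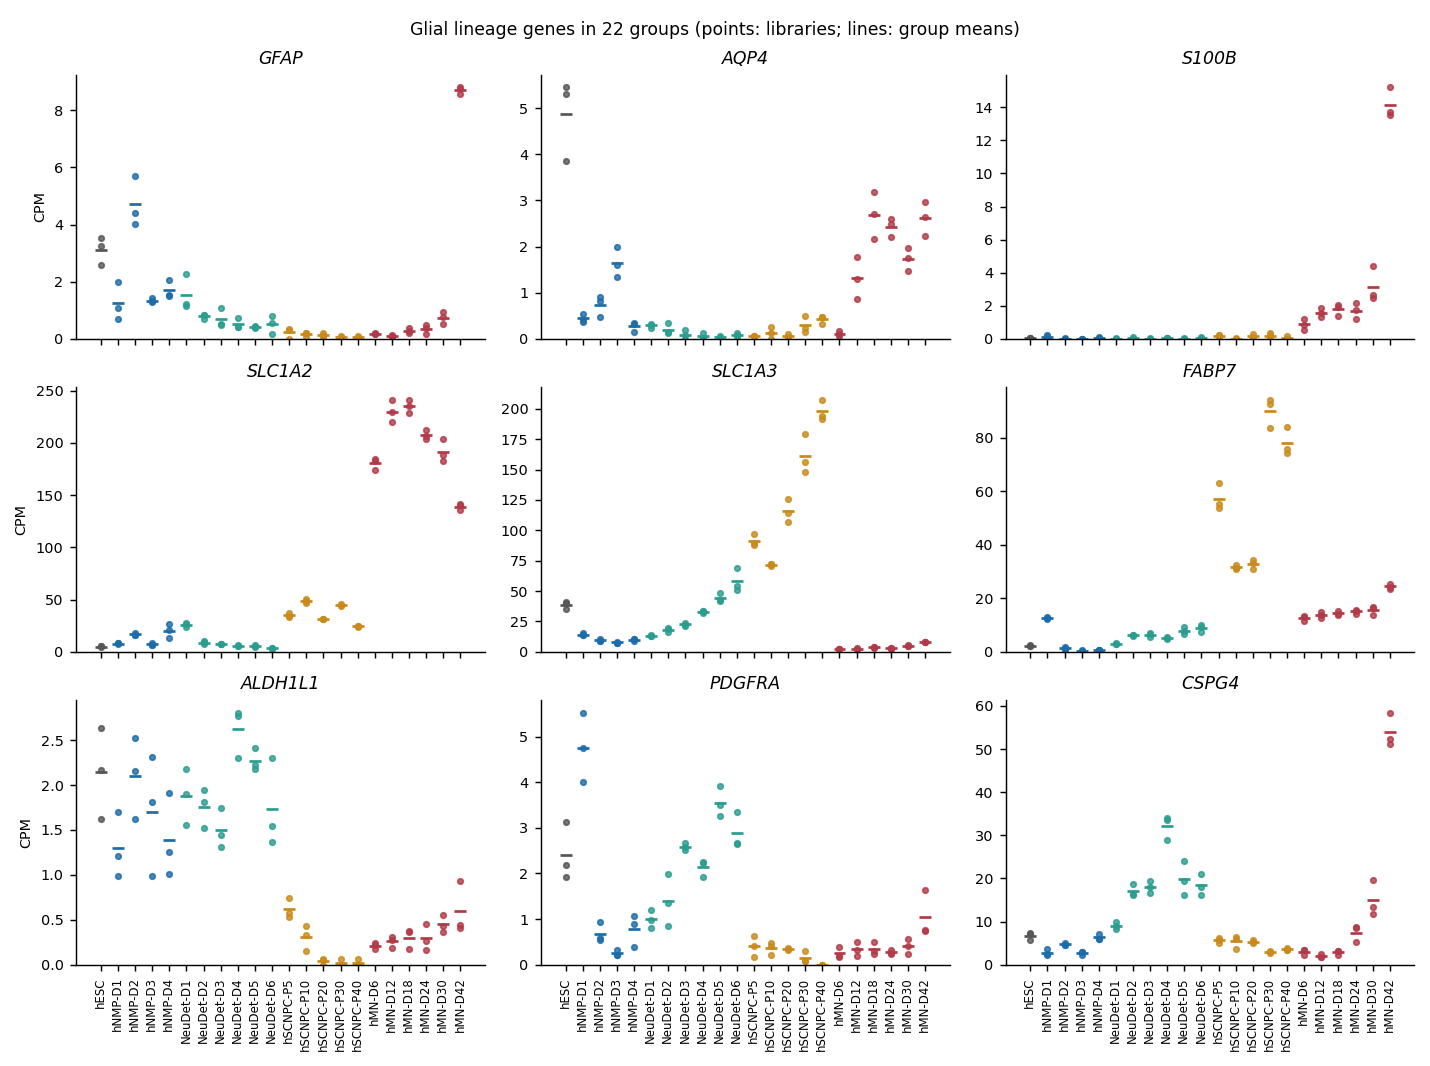
Level in CPM of each of the 9 genes (linear vertical axes from 0) in the 22 groups in protocol order; points are single libraries and short lines are group means. GFAP, S100B and CSPG4 have their highest mean in hMN-D42 (8.70, 14.1 and 53.9 CPM), SLC1A3 and FABP7 in late-passage hSCNPC, and SLC1A2 in hMN-D18.

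GFAP was the gene with the steepest late increase. Its 3 libraries held 8.81, 8.75 and 8.56 CPM in hMN-D42 (174, 177 and 220 counts), against 0.510, 0.938 and 0.767 CPM in hMN-D30 and 0.488, 0.182 and 0.382 CPM in hMN-D24. The hMN-D42 libraries were close to each other and far above every other hMN library. GFAP was 3.56 ± 0.21 log2 units higher in hMN-D42 than in hMN-D30 (SE, adjusted p = 1.87e-19, edgeR), or 11.8-fold, and 4.59 ± 0.23 higher than in hMN-D24 (adjusted p = 1.49e-22). Leaving out any one of the 6 libraries kept the hMN-D42 over hMN-D30 difference between 3.35 and 3.77. In hMN-D24 against hMN-D6, GFAP was not called (1.00 ± 0.44, adjusted p = 0.0537, edgeR). It was called with a filter of 1 CPM in every library of a group (0.0469) and without hMN-D24 replicate 2 (0.0190). The difference of hMN-D30 over hMN-D24 (1.03 ± 0.32, adjusted p = 0.0220, edgeR) lost its call when hMN-D24 replicate 2 (adjusted p = 0.152), hMN-D24 replicate 3 (0.0589), hMN-D30 replicate 2 (0.177) or hMN-D30 replicate 3 (0.0733) was left out.

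GFAP counts were not confined to hMN-D42. Undifferentiated hESC had 3.52, 2.60 and 3.25 CPM, and hNMP-D2 had 4.40, 4.02 and 5.68 CPM, the second-highest mean of the 22 groups. It was lower in hNMP-D4 than in hESC (log2 fold change -0.88 ± 0.33, adjusted p = 0.0217, edgeR) and lower in NeuDet-D6 than in hNMP-D4 (-1.79 ± 0.38, adjusted p = 5.20e-05). The hNMP-D4 call was lost without hNMP-D4 replicate 2 (adjusted p = 0.0787) or 3 (0.0671) and without hESC replicate 1 (0.0922) or 3 (0.0659). No hSCNPC library exceeded 0.355 CPM, with 3 counts over the group in hSCNPC-P40 and 12 in hSCNPC-P5, a ratio of 0.237 with a 95% counting interval of 0.043 to 0.88. The test over libraries did not pass the threshold for those passages (adjusted p = 0.0926, edgeR) and did so without hSCNPC-P5 replicate 2 (0.0194). Likewise hSCNPC-P5 against NeuDet-D6 (-1.14 ± 0.56, adjusted p = 0.0793) passed the threshold only without NeuDet-D6 replicate 2 (0.0101) or hSCNPC-P5 replicate 1 (0.0476).

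S100B was the one gene of the 9 that was below detection from hESC to hSCNPC-P40 and then appeared in the hMN course. No library before hMN exceeded 0.359 CPM, and hNMP-D3 had no count in its 3 libraries, which allows a level of up to 0.0573 CPM (3 counts over the group; counting error only). In hMN the libraries held 1.22, 0.549 and 0.868 CPM in hMN-D6, 1.56, 1.29 and 1.88 CPM in hMN-D12, and 2.18, 1.23 and 1.72 CPM in hMN-D24. In hMN-D6 53 counts were summed over 3 libraries, against 1 count in hSCNPC-P10, a ratio of 48.7 with a 95% counting interval of 8.38 to 1960 (adjusted p = 1.91e-07, edgeR). The level in hMN-D24 was higher than in hMN-D6 by 1.00 ± 0.28 log2 units (adjusted p = 0.00218).

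The larger S100B increase came later. The hMN-D42 libraries held 13.5, 15.2 and 13.7 CPM, against 2.63, 2.45 and 4.39 CPM in hMN-D30. All hMN-D42 libraries were above all hMN-D30 libraries, and S100B was 2.17 ± 0.18 log2 units (4.5-fold) higher (adjusted p = 3.53e-12, edgeR), between 2.02 and 2.48 with any one library left out. Over hMN-D24 it was 3.05 ± 0.19 higher (adjusted p = 1.33e-15). Between hMN-D30 and hMN-D24 S100B was 0.88 ± 0.22 higher (adjusted p = 0.00511), but without hMN-D30 replicate 3, the library with 4.39 CPM, the difference was 0.56 with an adjusted p of 0.106.

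AQP4, the astrocytic water channel, had its own time course. The libraries held 0.0553, 0.169 and 0.0965 CPM in hMN-D6, 0.873, 1.29 and 1.79 CPM in hMN-D12, and 3.18, 2.70 and 2.17 CPM in hMN-D18. It was thus detected in hMN-D18, when GFAP was not. It was 4.36 ± 0.38 log2 units higher in hMN-D24 (2.22, 2.60 and 2.48 CPM) than in hMN-D6 (adjusted p = 2.11e-14, edgeR). In the later days, hMN-D42 (2.23, 2.97 and 2.65 CPM) was 0.60 ± 0.22 above hMN-D30 (1.96, 1.47 and 1.75 CPM; adjusted p = 0.0250) and 0.13 ± 0.21 above hMN-D24, which was not called (adjusted p = 0.642). The hMN-D42 over hMN-D30 call was lost without hMN-D30 replicate 2 (adjusted p = 0.113), hMN-D42 replicate 2 (0.114) or hMN-D42 replicate 3 (0.0630).

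The highest AQP4 level of the whole course was in hESC, where the libraries held 3.85, 5.46 and 5.31 CPM. It was 4.12 ± 0.39 log2 units lower in hNMP-D4 (0.157, 0.318 and 0.336 CPM) than in hESC (adjusted p = 2.76e-13, edgeR), and lower again in NeuDet-D6 (-1.61 ± 0.62, adjusted p = 0.0210), a call lost without hNMP-D4 replicate 2 (0.0693) or 3 (0.0980) and without NeuDet-D6 replicate 1 (0.0617) or 3 (0.0759). At hSCNPC-P40, 24 counts were summed over the group against 3 at hSCNPC-P5, a ratio of 7.6 (95% counting interval 2.31 to 39.4; adjusted p = 0.00143, edgeR), both below detection. The antisense transcript AQP4-AS1, whose exons do not overlap those of AQP4, had 0.343 CPM in hMN-D42, 1.12 CPM in hMN-D30 and 1.64 CPM in hMN-D24.

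ALDH1L1, the folate enzyme used as a pan-astrocyte marker, did not reach detection in any hMN group. Its libraries held 0.405, 0.445 and 0.933 CPM in hMN-D42, against 0.431, 0.367 and 0.554 CPM in hMN-D30, and the groups overlapped (0.45 ± 0.39, adjusted p = 0.380, edgeR). Against hMN-D24 (0.263, 0.456 and 0.159 CPM) it was called higher in hMN-D42 (1.15 ± 0.42, adjusted p = 0.0201). The call was lost without hMN-D24 replicate 1 (0.0580) or 3 (0.157) and without hMN-D42 replicate 3 (0.345), and with DESeq2 (0.0815). The gene was more abundant before the progenitor stage: NeuDet-D4 had the highest mean, 2.63 ± 0.28 CPM (SD, n = 3), and overlapped with NeuDet-D5 (2.27 ± 0.12 CPM), whose libraries overlapped with those of hESC (2.15 ± 0.51 CPM). It was lower in hNMP-D4 than in hESC (-0.64 ± 0.27, adjusted p = 0.0429, edgeR), a call lost without hNMP-D4 replicate 1 (0.131) or 3 (0.212) and without hESC replicate 1 (0.253) or 2 (0.101). It was lower in hSCNPC-P5 than in NeuDet-D6 (-1.44 ± 0.31, adjusted p = 6.56e-05), and fell further with passage, with 1 count over the group in hSCNPC-P40 against 33 in hSCNPC-P5, a ratio of 0.0288 (95% counting interval 0.000707 to 0.172; adjusted p = 6.41e-07).

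The 2 glutamate transporters ran in opposite directions between progenitors and hMN. SLC1A3 (GLAST), a transporter that radial glia and astrocytes share, had its highest mean in hSCNPC-P40 (195, 207 and 192 CPM), against 87.5, 89.3 and 97.3 CPM in hSCNPC-P5, 1.12 ± 0.08 log2 units higher (adjusted p = 1.09e-17, edgeR). The order of its 5 highest groups was P40, P30, P20, P5 and P10, with no overlap between neighbours. In hMN-D6 its libraries held 2.27, 2.41 and 2.56 CPM, against 72.0, 72.4 and 70.6 CPM in hSCNPC-P10, 4.93 ± 0.10 log2 units (30.4-fold) lower (adjusted p = 1.22e-39). It then increased within the hMN course, with 4.35, 4.61 and 5.20 CPM in hMN-D30 (0.74 ± 0.12 over hMN-D24, adjusted p = 2.18e-05) and 7.84, 8.30 and 8.09 CPM in hMN-D42 (0.78 ± 0.11 over hMN-D30, adjusted p = 4.25e-08). Even in hMN-D42 SLC1A3 remained far below each hSCNPC group. Before the progenitors it had been lower in hNMP-D4 than in hESC (-1.95 ± 0.10, adjusted p = 1.35e-23), higher in NeuDet-D6 than in hNMP-D4 (2.48 ± 0.10, adjusted p = 2.31e-29) and higher in hSCNPC-P5 than in NeuDet-D6 (0.67 ± 0.08, adjusted p = 2.91e-10).

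SLC1A2 (GLT-1), the main astrocytic glutamate transporter of the mature nervous system, was instead high early in the hMN course, when GFAP was near 0. Its libraries held 174, 183 and 185 CPM in hMN-D6, against 50.3, 46.7 and 48.3 CPM in hSCNPC-P10, 1.86 ± 0.05 log2 units higher (adjusted p = 9.33e-36, edgeR). The means of hMN-D18 (235 CPM) and hMN-D12 (230 CPM) were the highest of all groups and their libraries overlapped. In hMN-D42 it fell, with 141, 136 and 140 CPM, against 203, 183 and 188 CPM in hMN-D30 (-0.46 ± 0.04, adjusted p = 1.71e-12) and 204, 212 and 207 CPM in hMN-D24 (-0.56 ± 0.04, adjusted p = 1.01e-15). SLC1A2 was the only one of the 9 genes called lower in hMN-D42 than in hMN-D30 and the only one called lower than in hMN-D24. Of the other SLC1 transporters, SLC1A1 (-0.51), SLC1A6 (-0.44) and SLC1A4 (-0.15) also fell in hMN-D42 relative to hMN-D30 and SLC1A5 rose (0.36). Among the earlier groups, SLC1A2 was higher in hNMP-D4 (2.03 ± 0.15 over hESC, adjusted p = 1.20e-16), lower in NeuDet-D6 (-2.55 ± 0.14 from hNMP-D4, adjusted p = 1.66e-21), and higher in hSCNPC-P5 (3.32 ± 0.14 over NeuDet-D6, adjusted p = 2.26e-26). It was lower in hSCNPC-P40 than in hSCNPC-P5 (-0.52 ± 0.12, adjusted p = 3.02e-04). Between hMN-D30 and hMN-D24 it was not called (-0.10 ± 0.04, adjusted p = 0.127), but it was without hMN-D30 replicate 1 (0.0211).

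FABP7, the lipid-binding protein of radial glia, was highest in hSCNPC-P30 (83.6, 94.2 and 92.9 CPM) and hSCNPC-P40 (74.3, 84.1 and 75.9 CPM), which overlapped. The hSCNPC-P40 level was 0.45 ± 0.10 log2 units above hSCNPC-P5 (63.2, 55.1 and 53.7 CPM; adjusted p = 1.56e-04, edgeR), although P10 and P20 (31.6 and 32.8 CPM on average) were below both. The gene rose in NeuDet-D6 over hNMP-D4 (3.89 ± 0.20, adjusted p = 1.02e-23) and in hSCNPC-P5 over NeuDet-D6 (2.67 ± 0.11, adjusted p = 1.02e-27), and was lower in hNMP-D4 than in hESC (-1.94 ± 0.27, adjusted p = 2.36e-08). In hNMP-D1 it had 12.9, 12.6 and 12.2 CPM, above hESC and every other hNMP and NeuDet group.

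FABP7 was also lower in hMN-D6 than in hSCNPC-P10 and was detected in every hMN group. Its libraries held 13.4, 11.5 and 13.0 CPM in hMN-D6, against 32.5, 31.2 and 31.0 CPM in hSCNPC-P10 (-1.37 ± 0.08, adjusted p = 9.30e-22, edgeR). The hMN-D24 over hMN-D6 difference was small (0.25 ± 0.08, adjusted p = 0.00501) and lost its call without hMN-D6 replicate 2 (0.0627). In hMN-D42 the libraries held 25.5, 24.4 and 23.6 CPM, against 16.7, 13.7 and 16.2 CPM in hMN-D30, without overlap (0.66 ± 0.07, adjusted p = 2.75e-10). Of the other lipid-binding proteins FABP3 rose (0.68) and FABP6 (-0.58), CRABP1 (-0.56) and CRABP2 (-0.24) fell over the same interval.

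CSPG4 (NG2), the proteoglycan of oligodendrocyte precursors and pericytes, was detected in every group and had 2 separate peaks. The first was in NeuDet-D4 (33.9, 28.9 and 33.6 CPM). It was higher in NeuDet-D6 than in hNMP-D4 (1.49 ± 0.14, adjusted p = 6.19e-14, edgeR), lower in hSCNPC-P5 than in NeuDet-D6 (-1.68 ± 0.14, adjusted p = 3.53e-15) and lower in hSCNPC-P40 than in hSCNPC-P5 (-0.67 ± 0.17, adjusted p = 9.76e-04). In hMN-D6 it was called lower than in hSCNPC-P10 (2.16, 3.50 and 3.33 against 6.52, 3.73 and 5.96 CPM; -0.90 ± 0.31, adjusted p = 0.0162), a call lost without hMN-D6 replicate 1 (0.0631) or hSCNPC-P10 replicate 1 (0.0854).

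The second and higher CSPG4 peak was in hMN-D42, with 51.1, 52.3 and 58.5 CPM (1010, 1058 and 1503 counts), against 13.4, 11.8 and 19.6 CPM in hMN-D30 and 8.68, 5.15 and 8.41 CPM in hMN-D24. The 3 groups did not overlap. CSPG4 was higher in hMN-D42 than in hMN-D30 by 1.86 ± 0.19 log2 units (3.64-fold; adjusted p = 8.93e-07, edgeR) and than in hMN-D24 by 2.87 ± 0.20 (adjusted p = 7.23e-09). It was also higher in hMN-D30 than in hMN-D24 (1.00 ± 0.22, adjusted p = 0.00631) and in hMN-D24 than in hMN-D6 (1.29 ± 0.28, adjusted p = 9.18e-04). The hMN-D30 over hMN-D24 call was lost when only these 2 groups were fitted (adjusted p = 0.123).

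PDGFRA, the PDGF receptor of oligodendrocyte precursors, had no hMN library above 1.63 CPM. Its libraries held 0.759, 1.63 and 0.739 CPM in hMN-D42 (15, 33 and 19 counts), against 0.235, 0.408 and 0.554 CPM in hMN-D30, without overlap. It was called 1.37 ± 0.38 log2 units higher (adjusted p = 0.00268, edgeR), a call lost without hMN-D42 replicate 2, the library with 1.63 CPM (0.91, adjusted p = 0.0915), and 1.97 ± 0.40 higher than in hMN-D24 (adjusted p = 4.59e-05). The highest PDGFRA level of the course was in hNMP-D1 (4.01, 5.52 and 4.75 CPM), followed by NeuDet-D5 (3.55 ± 0.33 CPM) and NeuDet-D6 (2.89 ± 0.41 CPM; SD, n = 3 each), which overlapped. It was lower in hNMP-D4 than in hESC (-1.67 ± 0.30, adjusted p = 4.41e-06), higher in NeuDet-D6 than in hNMP-D4 (1.87 ± 0.28, adjusted p = 8.83e-08) and lower in hSCNPC-P5 than in NeuDet-D6 (-2.77 ± 0.32, adjusted p = 1.43e-10). In hSCNPC-P40 no library had a count, which allows up to 0.0535 CPM, so that PDGFRA was at least 7.72-fold lower than in hSCNPC-P5 (22 counts; adjusted p = 6.15e-06).

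Counted together, 7 of the 9 genes were called higher in hMN-D42 than in hMN-D30 (GFAP, S100B, CSPG4, PDGFRA, SLC1A3, FABP7 and AQP4), 1 lower (SLC1A2) and 1 not called (ALDH1L1), where 41.7% of the 21175 genes tested were called (21.8% of all genes tested higher and 19.9% lower). The median log2 fold change was 0.78 over the 9 genes and -0.00 over all genes tested. Against hMN-D24, 7 were called higher (ALDH1L1 in place of AQP4) and 1 lower, where 51.1% of all genes were called. Only 4 of the 9 (GFAP, S100B, CSPG4 and SLC1A3) were called in hMN-D30 against hMN-D24, all higher, where 11.9% of all genes were called. This count was 2 without hMN-D30 replicate 3, when GFAP and S100B were lost. In hMN-D24 against hMN-D6, 5 were called higher (AQP4, CSPG4, S100B, FABP7 and SLC1A2) and none lower, where 63.5% of all genes were called. These comparisons share libraries, hMN-D42, hMN-D30 and hMN-D24 each standing in more than 1 of them.

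**Figure D2:**
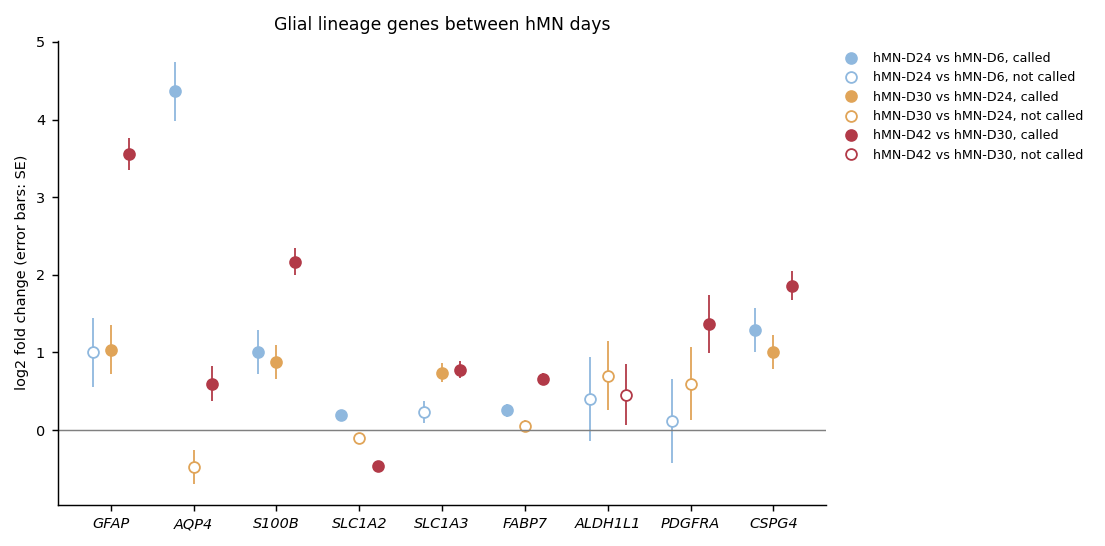
Log2 fold change with its SE (error bars) for each of the 9 genes in hMN-D24 over hMN-D6, hMN-D30 over hMN-D24 and hMN-D42 over hMN-D30; filled points were called by edgeR's quasi-likelihood test and open points were not. GFAP (3.56), S100B (2.17), CSPG4 (1.86) and PDGFRA (1.37) have the largest differences of hMN-D42 over hMN-D30, AQP4 has the largest of hMN-D24 over hMN-D6 (4.36), and SLC1A2 is lower in hMN-D42 (-0.46).

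In the earlier steps the 9 genes moved in both directions. In hMN-D6 against hSCNPC-P10, 2 were called higher (S100B and SLC1A2) and 3 lower (SLC1A3, FABP7 and CSPG4), where 75.2% of all genes were called. S100B failed the filter on low counts among the 48 earlier libraries, so that 8 genes were tested there. In hNMP-D4 against hESC, 1 was called higher (SLC1A2) and 6 lower, where 54.3% of all 21597 genes tested were called. In NeuDet-D6 against hNMP-D4, 4 were called higher (FABP7, SLC1A3, PDGFRA and CSPG4) and 3 lower (SLC1A2, GFAP and AQP4), where 65.1% were called. In hSCNPC-P5 against NeuDet-D6 the counts were 3 higher (SLC1A2, FABP7 and SLC1A3) and 3 lower (PDGFRA, CSPG4 and ALDH1L1), where 59.4% were called, and in hSCNPC-P40 against hSCNPC-P5 they were 3 higher (AQP4, SLC1A3 and FABP7) and 4 lower (PDGFRA, ALDH1L1, CSPG4 and SLC1A2), where 46.9% were called.

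Compared between genes per length of exon, as TPM, the order of the 9 in hMN-D42 differed from that in CPM. FABP7 (46.4), S100B (36.8), CSPG4 (30.6) and SLC1A2 (28.7) were the most abundant, GFAP (3.65), AQP4 (2.06) and SLC1A3 (1.79) followed, and PDGFRA (0.511) and ALDH1L1 (0.203) were lowest. In hMN-D24 SLC1A2 (42.8) was highest and S100B was at 4.43, CSPG4 at 4.19 and GFAP at 0.146. In hSCNPC-P40 FABP7 (104) and SLC1A3 (30.8) were the highest of the 9.

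Other genes of the astrocyte lineage increased over the same interval. As a background for this list and those below, 21.8% of all 21175 genes tested were called higher in hMN-D42 than in hMN-D30 and 19.9% lower. Of 25 further astrocyte genes, 21 were tested in hMN-D42 against hMN-D30, and 16 were called higher and 1 lower (median log2 fold change 1.46). Among those with at least 1 CPM in hMN-D42, large differences were in the sphingosine receptor S1PR1 (3.82, to 1.79 CPM), the gap junction protein GJA1 (2.19) and the hyaluronan receptor CD44 (2.14). Genes that are more restricted to mature astrocytes were at or near 0 in hMN-D42, with GJB6 at 0.0165, SLC39A12 at 0.132 and HEPACAM at 0.169 CPM. Of these 25 genes, 19 were detected in hMN-D42 and 18 already in hESC, so that most of the list was not limited to the late hMN groups. Its summed level was 736 to 751 CPM in hMN-D42, against 503 to 529 CPM in hMN-D30, and 1702 to 1753 CPM in hSCNPC-P10.

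Of 25 further oligodendrocyte lineage genes, 19 were tested, and 9 were called higher and 3 lower in hMN-D42 than in hMN-D30 (median 0.39). Those with large differences included ASPA (3.44, to 1.10 CPM), GPR17, a receptor of committed precursors (2.70, 33.8 against 5.21 CPM), and the factor SOX10 (1.99, 46.3 against 11.7 CPM). OLIG2, the factor that specifies motor neurons and oligodendrocytes, had 1.16 CPM in hMN-D42 and 0.765 CPM in hMN-D30 and was not called, and neither was OLIG1. Of the myelin genes, MOG had no count in any hMN group, MAG averaged 0.0165 CPM in hMN-D42, and MBP was lower in hMN-D42 (-0.21, 19.4 against 22.6 CPM). SOX10 is also expressed by Schwann and neural crest cells.

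Among 15 radial glia genes 9 were called higher and 1 lower in hMN-D42 than in hMN-D30, with HES1 (1.58), VIM (1.30), TNC (1.23) and LIX1 (0.93) the largest. The summed level of the 15 was 1185 to 1219 CPM in hMN-D42 and 717 to 762 CPM in hMN-D30, but 1536 to 1584 CPM in hMN-D6. Of 14 gliogenic transcription factors 7 were called higher and 4 lower. Those higher included all 4 nuclear factor I genes, some of which promote the onset of gliogenesis, with NFIX at 21.4 against 5.21 CPM (2.04) and NFIB at 4.51 against 2.104 CPM (1.10), while SOX9 was lower (-0.43, 8.21 against 11.1 CPM). Of 16 genes of the JAK-STAT pathway, through which cytokines of the LIF and CNTF family induce GFAP, 10 were called higher and 2 lower, with IL6R (1.22), LIF (0.99), LIFR (0.60) and SOCS3 (0.52) the largest of at least 1 CPM. Of 6 other PDGF ligands and receptors 4 were called higher and none lower, with the pericyte receptor PDGFRB (1.73) and its ligand PDGFB (1.16) the largest.

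**Figure D3:**
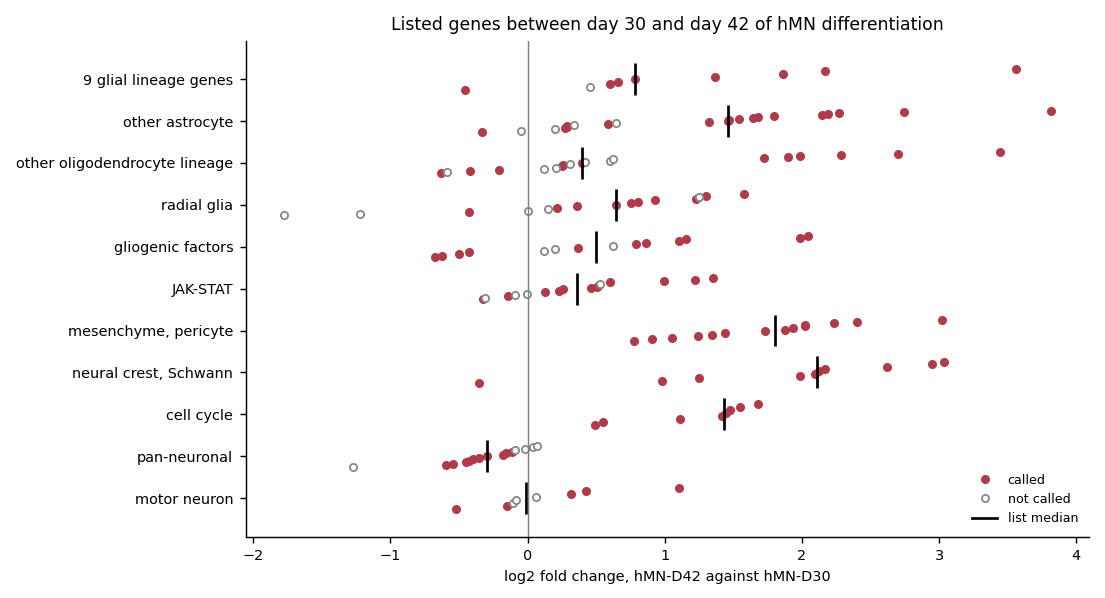
Log2 fold change of hMN-D42 over hMN-D30 for the 9 glial lineage genes and the genes of 10 further lists (1 point per gene tested, filled where called; vertical bars are list medians). The medians of the other astrocyte (1.46), mesenchyme and pericyte (1.80), neural crest and Schwann (2.11) and cell cycle (1.43) lists are above that of the 9 genes (0.78), and the pan-neuronal median is below 0 (-0.30).

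Markers of other cell types moved with these genes. All 14 mesenchyme and pericyte markers tested, of 16, were called higher in hMN-D42 than in hMN-D30, with DCN (3.02), PRRX1 (2.40), COL1A1 (2.23, 673 against 144 CPM) and COL1A2 (2.03) the largest. The summed level of the 16 was 901 to 1008 CPM in hMN-D42, against 145 to 391 CPM in hMN-D30 and 86.3 to 131 CPM in hMN-D24. The 391 CPM was in hMN-D30 replicate 3, the library with the highest S100B, CSPG4, PDGFRA, SLC1A3 and ALDH1L1 of its group. PDGFRA and ALDH1L1 had 13 counts each there, against at most 10 and 11 in another library of hMN-D30. GFAP was highest in replicate 2 (0.938 against 0.767 CPM in replicate 3), and AQP4, FABP7 and SLC1A2 were highest in replicate 1. TBX18 (0.136 CPM) and FOXF1 (0.106 CPM) stayed near 0. Of 11 neural crest and Schwann markers 9 were called higher and 1 lower, with FOXD3 (3.04), PMP22 (2.95) and CDH19 (2.62) the largest. The summed level of the 11 was 376 to 386 CPM in hMN-D42 and 279 to 301 CPM in hMN-D30, but 596 to 649 CPM in hMN-D6. All 8 cell cycle markers were called higher (summed 119 to 129 against 58.6 to 71.0 CPM). Of 15 pan-neuronal markers 10 were called lower and none higher (summed 10880 to 11020 against 12580 to 12770 CPM). Motor neuron markers moved in both directions, summed at 102.3 to 105.4 against 111.5 to 116.5 CPM. Those called higher included MNX1 (0.43) and ISL1 (0.32), and those called lower included SLC5A7 (-0.52) and SLC18A3 (-0.15).

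The part of these other cell types in the increases of GFAP, S100B, CSPG4 and PDGFRA was not tested. Without hMN-D30 replicate 3 the hMN-D42 over hMN-D30 differences were 3.59 for GFAP, 2.48 for S100B, 2.104 for CSPG4 and 1.67 for PDGFRA. In that fit 8 of the 9 genes were called. Replicate 3 had the highest S100B, CSPG4 and PDGFRA of hMN-D30, so leaving it out raises their differences in any case. The part of other cell types is not tested by this. Markers of microglia and endothelium were low, with AIF1, C1QA and TREM2 without counts in hMN-D42 and a summed level over 11 genes of 3.85 to 4.40 CPM. Of 8 ependymal and choroid plexus markers, summed at 14.04 to 14.7 CPM in hMN-D42 and 5.84 to 11.4 CPM in hMN-D30, CFAP126 and TMEM212 had no count in hMN-D42.

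**Figure D4:**
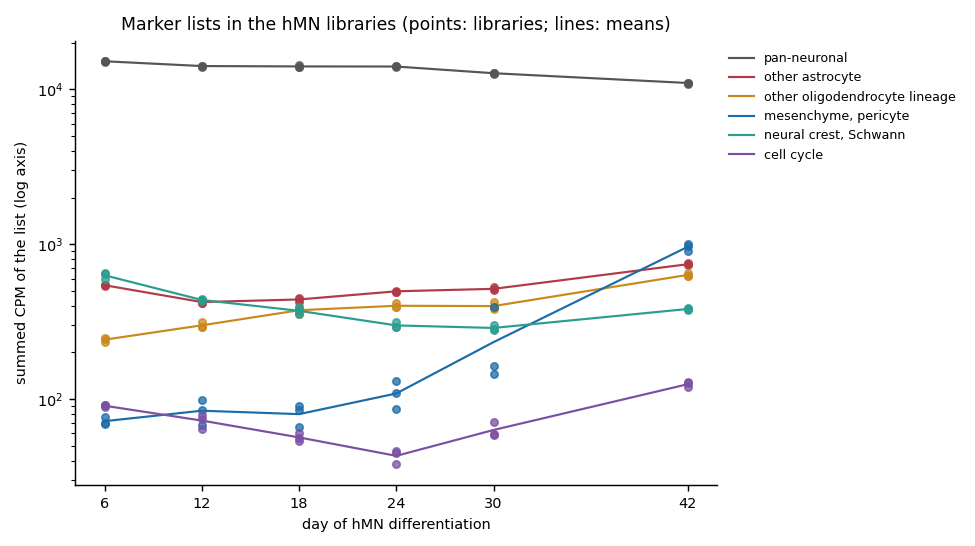
Summed CPM (log axis) of 6 marker lists in the 18 hMN libraries by day of differentiation; points are libraries and lines are means. The mesenchyme and pericyte sum is 901 to 1008 CPM in hMN-D42 and 145 to 391 CPM in hMN-D30, while the pan-neuronal sum is 10880 to 11020 CPM in hMN-D42 and 12580 to 12770 CPM in hMN-D30.

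Over the 22 group means, the genes whose pattern was most like that of each member were sought by Pearson's r of log2(CPM + 1) among 14769 genes. These values are descriptions over 22 groups that share a cell line and protocol, with no test. For GFAP they were NT5E (0.927), NFATC2 (0.876), ACTG2 (0.866), IL6R (0.863) and AFAP1L1 (0.861). For S100B the named ones were APOD (0.974), A2M (0.964) and ITGA11 (0.963), and for CSPG4 RHOJ (0.872), ARID5A (0.872), CCDC80 (0.811), FBN1 (0.805) and ISLR (0.799). SLC1A2 was instead most like MAP1B (0.966), NRG1 (0.962), MAPK8IP1 (0.962), HSPA12A (0.958) and SVOP (0.957), of which MAP1B encodes a neuronal microtubule-associated protein. SLC1A3 was most like LPAR4 (0.961) and PLA2G4A (0.957), and FABP7 like PDZD11 (0.928) and TMEM106C (0.927). Among the 9 genes themselves the highest of 36 correlations were between PDGFRA and ALDH1L1 (0.731) and between S100B and SLC1A2 (0.712), and the lowest was between ALDH1L1 and FABP7 (-0.784).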

How the data were processed

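Total RNA of H9 cells and their derivatives was made into libraries and sequenced as paired ends. Per the authors' notes, reads were aligned to hg38 with HISAT2 2.1.0 and counted per gene with featureCounts 1.5.3, and the deposited values are raw counts per gene in 2 tables (48 and 18 libraries). The annotation release and strand setting are not given in the sources used here. Of 60603 identifiers, 60261 had a symbol in GENCODE release 44. No column was left without a sample.

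Depth was 14142238 to 40204753 counts per library, and intervals and floors cover counting error only. Each count was fitted with edgeR 4.0.16 in R 4.3.3 (TMM, filterByExpr, robust quasi-likelihood F test), with the 48 libraries in one fit and the 18 hMN with the 3 hSCNPC-P10 libraries in another. Fits were tested on simulated data. The SE is the fold change over the root of F. TPM values used exon lengths of GENCODE release 44. Alternatives were other filters, RLE scaling, DESeq2 1.42.0, other sets of libraries or starting passages, a replicate block and leaving out each library.

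The members and lists were chosen with earlier results of these data known. All 9 members are named. From each list, at most 4 called genes with the largest absolute fold change and at least 1 CPM in the higher group are named, plus defining markers; some genes that this rule names are not reported here. Like genes are up to 5 per member, among genes with a group mean of at least 5 CPM.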

Additional observations from a re-analysis of the deposited data

How the results depend on the processing

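Of 994 fold changes of a member recomputed under an alternative, 930 kept direction and side of the threshold, 36 lost and 8 gained a call and 20 changed sign. The increases of GFAP, S100B and CSPG4 in hMN-D42 over hMN-D30 kept their calls under every alternative run. The number of members called in hMN-D30 against hMN-D24 was 4, but 2 with all 66 libraries in one fit and 2 to 5 with 1 library left out; all genes called there were 2516, but 1033 with all 66 libraries and 1643 to 2180 with 1 library left out. In hSCNPC-P40 against hSCNPC-P5, 7 members were called, but 4 when these groups were fitted alone, where the filter kept fewer members. AQP4 in hMN-D42 over hMN-D30 lost its call with all 66 libraries (adjusted p = 0.0847, edgeR).

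Changes of sign in hMN-D6 against hSCNPC-P10 were as follows. GFAP, -0.02 as reported, was 0.0306 with a 1 CPM filter, 0.0234 with all 66 libraries, 0.2543 against hSCNPC-P20 and -0.3069 to 0.2358 with 1 library left out. AQP4 was 0.89 against hSCNPC-P5, 0.95 against hSCNPC-P20 and -0.9109 to 0.8447 with 1 library left out. ALDH1L1 was 2.34 against hSCNPC-P20 (adjusted p = 0.0174, edgeR) and -1.58 against hSCNPC-P5 (adjusted p = 0.00298). With 1 library left out, other uncalled differences also crossed 0, for CSPG4 in hNMP-D4 against hESC (-0.1462 to 0.0410), ALDH1L1 (-0.0120 to 0.7431) and PDGFRA (-0.1134 to 0.5335) in hMN-D24 against hMN-D6, FABP7 in hMN-D30 against hMN-D24 (-0.0091 to 0.1298) and ALDH1L1 in hMN-D42 against hMN-D30 (-0.0783 to 0.6437). The cause was not tested.

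Pairing of libraries by replicate number was not evident, with correlations of same-numbered deviations of -0.03 to 0.047. In hNMP-D4 against hESC all 3 libraries matched their own number best, at 0.025, 0.037 and 0.024. Such weak values do not tell if same-numbered libraries shared a culture. With the replicate block the members called were 8 in hMN-D42 against hMN-D30 and 4 in hMN-D30 against hMN-D24, and the block changed no count of members called.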
